A study of Mus musculus with 70 samples.

Results

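The CD45+ cells of B16F10 melanomas were compared 3 days after ablation between 6 libraries of histotripsy-treated tumors and 4 libraries of control tumors, which make up 10 of the 70 libraries of the series. These libraries were chosen by their labels alone, and every gene with a name in the count table of this fraction and day was read. Of 55487 named lines, 10264 held enough counts to be tested.

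B16F10 is a melanoma line of C57BL/6 mice, grown here under the skin of both flanks of wild-type C57BL/6 mice, 6 to 8 weeks of age. The study used male and female mice, and the labels do not give the sex behind each library. Histotripsy uses short focused ultrasound pulses that break tissue mechanically without heat, and only part of each treated tumor was ablated, while control tumors received a sham procedure. Tumors were dissociated with enzymes, red blood cells were lysed, and CD45+ cells were flow-sorted. CD45, encoded by Ptprc, marks all white blood cells, so the fraction mixes myeloid and lymphoid cells. In such bulk samples fewer cells of a type and less RNA per cell cannot be told apart. The paper gives group sizes in mice for the figure with these data. The sources do not state that each library of a group came from a separate mouse, so p-values measure the spread between these libraries.

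After tissue injury, granulocytes and monocytes enter first. Receptors for microbial and damage signals on these cells start transcription through NF-kB, which induces cytokines together with its own inhibitors. Later, macrophages take up debris, switch to alternatively activated states that serve repair, and present antigen to T cells, which must divide to expand.

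QuantSeq libraries count the 3′ ends of transcripts, so values are not divided by gene length. The library totals were 1186404 to 1658775 counts in treated and 1039007 to 2448335 in control tumors. Levels are given as CPM, the count of a gene relative to the library total scaled by edgeR's TMM factor, and fold changes are log2 differences of treated minus control with their standard error (SE). Ptprc ranged over 717 to 1081 CPM in treated and 724 to 1023 CPM in control libraries, and the ranges overlapped. Xist was at 454 to 745 CPM in treated and 420.4 to 712 CPM in control libraries, and the Y-linked Ddx3y and Eif2s3y had 0 counts in each. No library thus gave a sign of male cells. The share of counts from the 13 mitochondrial protein genes was 1.21 ± 0.248% (SD, n = 6) in treated and 1.54 ± 0.165% (SD, n = 4) in control libraries, a difference of -0.333 points (two-sided exact permutation test, p = 0.0524, adjusted p = 0.136). Only 7 of these 13 genes held enough counts to be tested, and 5 had 0 counts in every library. Treated replicate 3 stood apart, with the lowest TMM factor (0.766) and the highest level of neutrophil and hemoglobin genes. Treated replicate 5 had the lowest level of neutrophil genes of the treated libraries.

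On day 3 after histotripsy, 637 genes were higher and 163 lower than in control tumors at a Benjamini-Hochberg adjusted p under 0.05 (edgeR's quasi-likelihood test), or 6.21% and 1.59% of the genes tested and 7.79% in either direction. Of these 800 genes, 447 had CPM values that did not overlap between the groups, 341 of them higher and 106 lower. Across all genes tested, 4.38% did not overlap and were higher and 2.39% did not overlap and were lower. For 247 of the 800 genes the call held in all 10 leave-one-out fits, each of which omits a different library. Scaling by library totals in place of TMM factors moved the median over all genes from -0.01 to -0.22 on the log2 scale and turned the calls to 414 higher and 663 lower. Changes are described on the TMM scale, and the count of a list with library totals is given beside its own where the 2 differ.

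Genes were grouped by 49 lists, 35 of programs and 14 of cell type markers, which hold 1157 distinct symbols, 965 of them tested. A gene can be on more than one list. Listed genes made up 97 of the genes that rose and 34 of those that fell. The other 669 called genes were on no list.

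**Figure D1:**
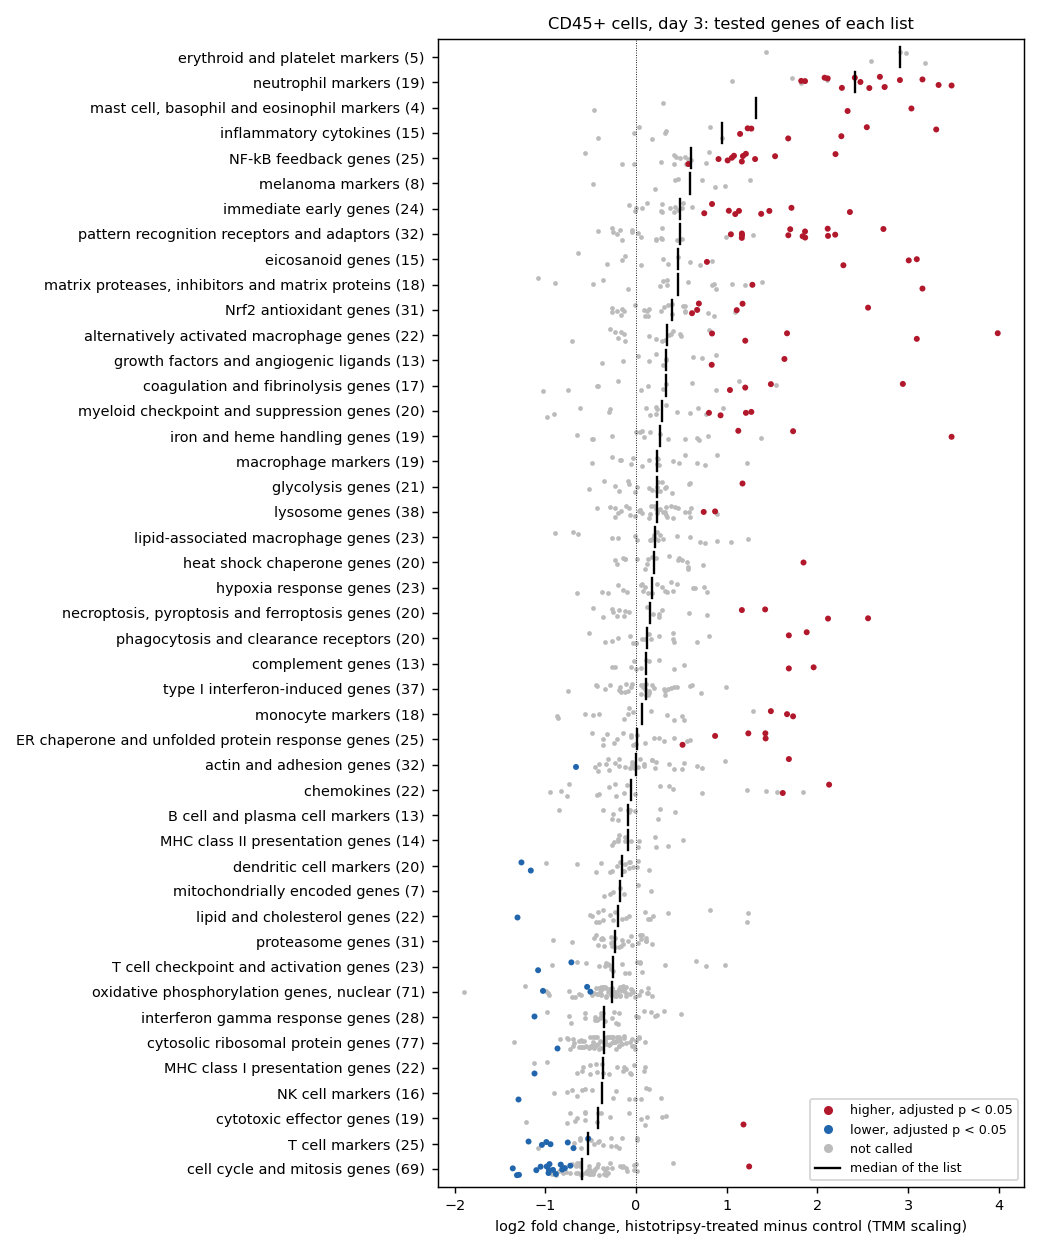
Log2 fold change of histotripsy-treated minus control CD45+ cells on day 3 (x axis, TMM scaling) for each tested gene of the lists with at least 4 tested genes, whose number is in brackets. Red and blue points passed an adjusted p of 0.05 (edgeR), grey points did not, and black ticks are list medians. Neutrophil markers had a median of 2.41, inflammatory cytokines of 0.95 and NF-kB feedback genes of 0.61, while T cell markers (-0.53) and cell cycle genes (-0.60) lay at the other end.

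The genes with the largest increase did not belong to a single family. Retnla, which encodes the secreted resistin-like protein FIZZ1 of alternatively activated macrophages and eosinophils, had 51.2, 128 and 288 CPM as the lowest, median and highest of the 6 treated libraries, against 9.15, 17.3, 6.46 and 2.24 CPM in control replicates 1 to 4. Its lowest treated library lay above its highest control library, and its log2 fold change was 3.99 (SE 0.89, edgeR adjusted p = 0.00934), between 3.58 and 4.67 with each library left out. Slc1a2, a glutamate transporter best known from glia (GRCm38 chromosome 2, 102658659 to 102790784), rose by 3.73 (SE 0.46, edgeR adjusted p = 0.000645), from at most 4 counts in a control library. Its treated libraries ranged over 6.70 to 27.9 CPM and its control libraries over 0.915 to 1.53 CPM.

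Other large increases were in secreted or inflammatory genes. Chil1, a chitinase-like protein, rose by 3.86 (SE 0.71), the acute phase protein gene Saa3 by 3.41 (SE 0.66), Il1f9, which encodes interleukin-36 gamma, by 3.38 (SE 0.76), and Gpr84, a receptor for medium-chain fatty acids on myeloid cells, by 2.95 (SE 0.53). The groups did not overlap for any of the 4, although treated replicate 3 alone reached 159 CPM of Chil1 and 584 CPM of Il1f9. Rasip1, which encodes a Ras-interacting protein, rose by 3.52 (SE 0.54), the chromatin gene Cecr2 by 3.48 (SE 0.52), the membrane protein gene Lsmem1 by 3.35 (SE 0.54) and the retinol dehydrogenase gene Rdh12 by 2.85 (SE 0.58). Csta3 (log2 fold change 3.51) belongs to a cluster of near-identical stefin genes, so its reads are uncertain, and it passed in the 6 leave-one-out fits that tested it. Prnp, the prion protein gene, rose by 3.05 (SE 0.77), with 14.6, 23.04 and 264 CPM as the lowest, median and highest treated library. The highest of these is treated replicate 6, which lay far above the rest, and without it the log2 fold change was 1.57. The call was lost without control replicate 3 or 4.

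Genes without a protein product were among the largest increases. Of the tested genes that GENCODE lists as TEC, a type not yet verified by experiment, 19.8% rose (47 of 237) and 0 of 237 fell. Of antisense genes 15.9% rose (17 of 107) and of lincRNA genes 16.8% (22 of 131), against 5.59% of protein-coding genes (511 of 9140). The summed level of the TEC genes was 4134 to 6033 CPM in treated and 2281 to 3659 CPM in control libraries, with no overlap. With library totals as the scaling, their median log2 fold change was 0.43 and that of protein-coding genes -0.24. Of the 103 noncoding genes that rose, 58 overlapped a tested protein-coding gene, and for 22 of these 58 that gene also rose, against 19 of 317 such overlaps among noncoding genes that were not called. The strand setting of the counting is not given in the sources used here, so reads of overlapping genes cannot be told apart, and the part of such reads in these counts was not tested. Gm10388 (TEC, chromosome 6, 149283838 to 149286773), Gm15728 (lincRNA, chromosome 5, 117389139 to 117393498) and 1110002J07Rik (lincRNA, chromosome 10, 66912489 to 66920258) overlapped no tested coding gene. They rose by 4.47 (SE 0.72), 3.998 (SE 0.76) and 3.67 (SE 0.67). Gm28192, an antisense gene within the span of Csnk1d, rose by 2.97 (SE 0.44).

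With all libraries of day 3 in the edgeR fit, neutrophil markers held the largest number of rising genes of any list. Of 24 neutrophil markers 19 were tested, 14 rose and none fell, with a median of 2.41 on the log2 scale. The number that rose was 7 to 15 with 1 library left out. Without treated replicate 3 it was 8, fewer than the 11 pattern recognition genes that rose then. Their summed level was 5859.95, 15673, 49919, 8366, 3268 and 12809 CPM in treated replicates 1 to 6 and 1239, 1808, 3703 and 4214 CPM in control replicates 1 to 4. Treated replicate 5 lay within the range of the controls, so the groups overlapped. Ly6g, which defines mouse neutrophils by its surface protein, had 0 to 4 counts in each treated library but replicate 3, which had 60, and 0 to 13 in controls, and it was not tested.

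The neutrophil marker with the smallest p was Hdc, the histidine decarboxylase that makes histamine, with 381, 888 and 1806 CPM as the lowest, median and highest treated library against 69.5, 121, 185 and 177 CPM in the 4 control libraries. The groups did not overlap (log2 fold change 2.74, SE 0.39, edgeR adjusted p = 0.000871). Acod1, which makes itaconate, rose by 2.48 (SE 0.43), Il1r2, a decoy receptor for interleukin-1, by 1.86 (SE 0.34), and the protease inhibitor gene Slpi by 1.82 (SE 0.38), each without overlap. For the alarmin gene S100a8, treated libraries had 748, 2810.2 and 18799 CPM as the lowest, median and highest value and control libraries 184, 429, 1198 and 1404 CPM. The groups overlapped, and its log2 fold change of 2.69 (SE 0.74, edgeR adjusted p = 0.0274) passed in 6 of the 10 leave-one-out fits and was lost with only these 2 groups in the fit. S100a9 behaved alike, with 2.91 (SE 0.80), as did the receptors Csf3r for granulocyte colony-stimulating factor (2.08, SE 0.54) and Cxcr2 for CXC chemokines (2.27, SE 0.64), which passed in 6 and 4 of the 10 fits.

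Of 14 mast cell, basophil and eosinophil markers 4 were tested, of which 2 rose and none fell. Siglecf, a sialic acid receptor of eosinophils, had 3.66, 12.9 and 26.5 CPM as the lowest, median and highest treated library and 0.915, 2.04, 2.35 and 1.12 CPM in the control libraries, at most 4 counts in any of them. The groups did not overlap (log2 fold change 3.04, SE 0.66, edgeR adjusted p = 0.00767). Ccr3, the eotaxin receptor, rose by 2.33 (SE 0.57, edgeR adjusted p = 0.0161). Prg2, the major basic protein of eosinophil granules, had 2 to 19 counts in treated and 0 to 2 in control libraries and was not tested. Epx, the eosinophil peroxidase, had 0 counts in each of the 10 libraries, a count that allows up to 3 per library.

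Of 18 monocyte markers, all tested, 3 rose and none fell, while 2 fell with library totals, 1 in DESeq2 and 0 to 2 with 1 library left out. Of 19 tested macrophage markers none passed, with 4 at an unadjusted p under 0.05 and none called by DESeq2 or limma-voom. The 3 monocyte markers were Hp, F10 and Chil3. Hp, the hemoglobin-binding haptoglobin, rose by 1.73 (SE 0.37) and Chil3, a chitinase-like lectin of monocytes and alternatively activated macrophages, by 1.67 (SE 0.37), each without overlap. The defining monocyte genes Ly6c2 (242 to 1025 CPM treated, 478 to 653 CPM control) and Ccr2 (253 to 562 and 429.8 to 602 CPM) overlapped between groups and were not called. So did the macrophage genes Adgre1 (38.6 to 104 and 34.6 to 65.3 CPM), C1qa (82.3 to 215 and 118 to 165 CPM) and Mrc1 (38.6 to 159.7 and 36.6 to 74.3 CPM).

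**Figure D2:**
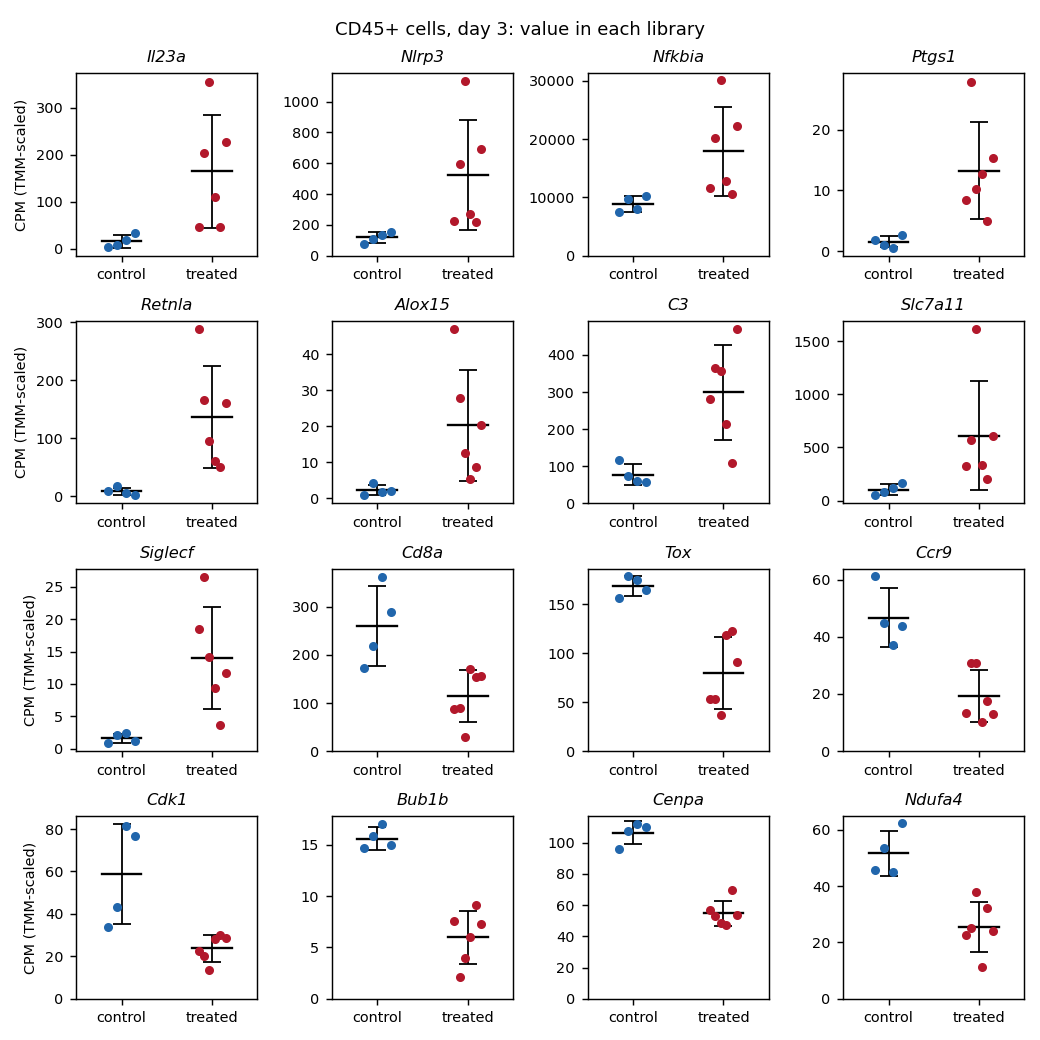
CPM (TMM-scaled, linear y axes that include 0) of 16 genes in each library of CD45+ cells on day 3, with 4 control libraries in blue and 6 histotripsy-treated libraries in red, and bars for the mean and SD. In all 16 panels but that of C3 the groups do not overlap, with the treated libraries above the controls from Il23a to Siglecf and below them from Cd8a to Ndufa4.

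Receptors that sense microbes and damage rose as well. Of 32 tested pattern recognition receptors and adaptors, 13 rose and none fell, a share of 40.6% against 6.21% of all genes, with a median of 0.48. With library totals as the scaling 12 rose. Nlrp3, the sensor of the inflammasome that matures interleukin-1 beta, had 221, 434 and 1131 CPM as the lowest, median and highest treated library and 78.7, 107, 138 and 156 CPM in the control libraries. Treated and control values did not overlap (log2 fold change 2.12, SE 0.39, edgeR adjusted p = 0.00271). Mefv, which encodes the inflammasome sensor pyrin, rose by 1.70 (SE 0.33), Clec4e, a lectin that binds a protein released by dead cells, by 1.86 (SE 0.37), Fpr2, a formyl peptide receptor, by 2.20 (SE 0.44) and Casp4, the caspase for intracellular lipopolysaccharide, by 1.17 (SE 0.24). The others were Clec4d, Tlr6, Irak3, Tlr2, Irak2, Tlr13, Fpr1 and Nod2. Several of these genes are abundant in neutrophils, whose markers moved with them, and the part of cell mixture in these values was not tested.

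Of 25 tested genes that NF-kB induces and that mostly restrain it, 11 rose and none fell, with a median of 0.61. With library totals 9 rose, and 7 to 15 did with 1 library left out. Their mean level did not overlap between the groups in the plot of list levels by library. Nfkbia, which encodes the inhibitor IkB-alpha and was picked out of the 11 after its values were seen, had 10589.8, 16446 and 30176 CPM as the lowest, median and highest treated library and 7492, 9783, 7989.6 and 10326 CPM in the control libraries. The lowest treated library lay just above the highest control library (log2 fold change 1.01, SE 0.26, edgeR adjusted p = 0.021), and 8 of the 10 leave-one-out fits called it, while a fit of only these 2 groups did not. Tnfaip2, induced by tumor necrosis factor, rose by 2.20 (SE 0.34, edgeR adjusted p = 0.0011) and the adhesion molecule gene Icam1 by 1.53 (SE 0.31). The remaining 8 were Ikbke, Cflar, Nfkbid, Tnip1, Nfkbiz, Nfkbie, Nfkbib and Zc3h12a.

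The window from 250 bases before to 50 after the start of Nfkbia is shown because the gene is a textbook NF-kB target. It comes from RefSeq (GRCm38.p6, chr12:55492598-55492897, minus strand), and capitals mark the match to the kappaB motif (GGGA, any 2 bases, then TTCC), read on either strand.
Nfkbia: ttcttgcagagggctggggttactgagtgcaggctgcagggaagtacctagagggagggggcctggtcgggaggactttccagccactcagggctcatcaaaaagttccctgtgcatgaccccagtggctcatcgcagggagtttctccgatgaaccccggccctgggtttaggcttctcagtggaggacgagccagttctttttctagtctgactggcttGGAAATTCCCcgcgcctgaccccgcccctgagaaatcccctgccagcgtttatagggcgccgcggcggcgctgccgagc
The match begins at position -29 from the start. Among 32851 RefSeq windows of this length 1.47% held the motif, and among the called genes of the list with a window 1 of 10 did.

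Of 15 tested inflammatory cytokine genes 7 rose and none fell, with a median of 0.95, and 6 rose with library totals. Il23a, the p19 subunit of interleukin-23 (GRCm38 chromosome 10, 128296139 to 128298752), had 45.3, 157 and 356 CPM as the lowest, median and highest treated library and 2.74, 8.16, 17.6 and 32.5 CPM in the control libraries. Treated and control values did not overlap (log2 fold change 3.31, SE 0.59, edgeR adjusted p = 0.00239). Il1b was far more abundant, with 3596, 6084 and 10663 CPM in treated and 3409, 2549, 2973 and 3345 CPM in control libraries, and rose by 1.15 (SE 0.26, edgeR adjusted p = 0.00927). Its antagonist Il1rn rose by 1.23 (SE 0.24). Il10, which restrains inflammation, rose by 1.27 (SE 0.28), each of the 3 without overlap. The growth factors of granulocytes and macrophages, Csf3 and Csf1, rose by 2.55 (SE 0.51) and 2.26 (SE 0.50) with overlapping groups. Tnf had a log2 fold change of 0.95 (SE 0.32, edgeR adjusted p = 0.0717) and did not pass, and Il6 was at 5.03 to 18.9 CPM in treated and 5.28 to 16.5 CPM in control libraries.

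Among 22 tested chemokines only Ccl3 and Cxcl2 passed, both higher, and with library totals 1 chemokine was lower as well. Ccl3 rose by 1.62 (SE 0.31) without overlap. Cxcl2 had 3808, 10503 and 29532 CPM as the lowest, median and highest treated library and 1498, 1785, 3615 and 4637 CPM in the control libraries, which overlapped, and rose by 2.13 (SE 0.51). The interferon-induced chemokines Cxcl9 (46.4 to 256 CPM treated, 159 to 373 CPM control) and Cxcl10 (63.4 to 115 and 85.7 to 114 CPM) were not called.

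Of 24 tested immediate early genes, which are transcribed within minutes of a stimulus, 9 rose and none fell, and 6 rose with library totals and 6 to 10 with 1 library left out. Egr3 had 36.0, 111 and 197 CPM as the lowest, median and highest treated library against 14.6, 19.9, 28.2 and 25.8 CPM in the control libraries, and the groups did not overlap (log2 fold change 2.36, SE 0.39, edgeR adjusted p = 0.00128). Ier3 rose by 1.71 (SE 0.27), Fosb, a subunit of AP-1, by 1.14 (SE 0.17) and the small Maf factor gene Maff by 1.47 (SE 0.25), each without overlap.

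Genes of lipid mediator synthesis rose in 4 of 15 tested cases and none fell, while with library totals 3 rose and 1 fell, and with 1 library left out 2 to 5 rose. Ptgs1, cyclooxygenase-1, had 4.88, 11.5 and 27.9 CPM as the lowest, median and highest treated library and 1.83, 1.02, 0.587 and 2.61 CPM in the control libraries, at most 7 counts in any of them. Treated and control values did not overlap (log2 fold change 3.01, SE 0.55, edgeR adjusted p = 0.00271). Alox5, which starts leukotriene synthesis, rose by 2.29 (SE 0.45) and its activating protein Alox5ap by 0.78 (SE 0.21). Alox15, a lipoxygenase of alternatively activated macrophages and eosinophils, rose by 3.10 (SE 0.83, edgeR adjusted p = 0.025). The 4 genes did not overlap between the groups. Alox15 and Alox5ap passed in 6 and 6 of the 10 leave-one-out fits, and both were lost without control replicate 1, 3 or 4.

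**Figure D3:**
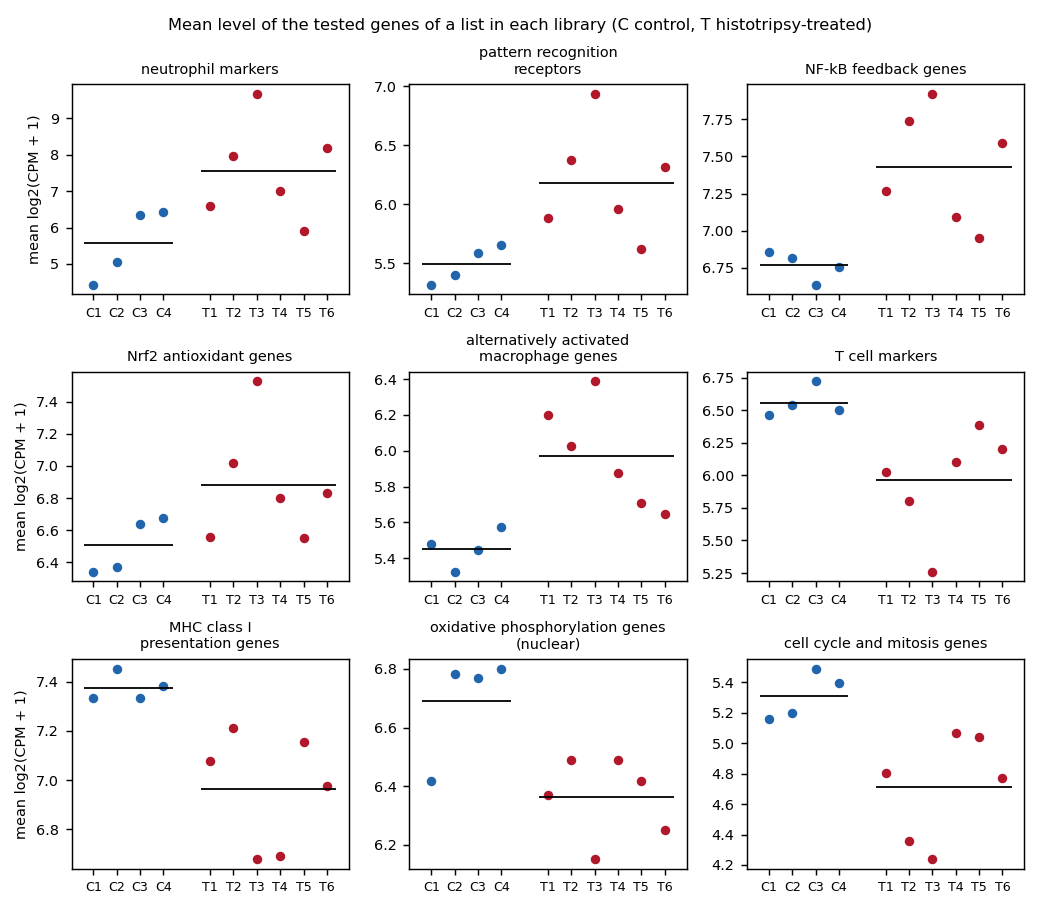
Mean log2(CPM + 1) of the tested genes of 9 lists in each library, with control libraries C1 to C4 in blue, histotripsy-treated libraries T1 to T6 in red and lines for group means. T3 is the extreme treated library for neutrophil, pattern recognition, Nrf2 and T cell genes, and T5 lies within the range of the controls for neutrophil markers, pattern recognition receptors and Nrf2 genes, while NF-kB feedback genes, genes of alternative activation, T cell markers, MHC class I genes and cell cycle genes do not overlap between the groups.

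Of 22 tested genes of alternative macrophage activation 5 rose and none fell, all 5 without overlap and all 5 called with library totals as the scaling. They were Retnla, Alox15 and Chil3, described above, with Tgm2 and Klf4. Tgm2, a transglutaminase that cross-links proteins, had 415, 659 and 1049 CPM as the lowest, median and highest treated library and 331, 318, 280.1 and 247 CPM in the control libraries (log2 fold change 1.20, SE 0.23, edgeR adjusted p = 0.00341). Klf4, a transcription factor of this state, rose by 0.84 (SE 0.18), with the lowest treated library at 342 CPM and the highest control library at 340.3 CPM. Arg1, the arginase often used to mark the state, had 303, 438 and 2159 CPM in treated and 205, 258, 694 and 1190.0 CPM in control libraries, and was not called.

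The window of Retnla is shown because the gene had the largest change of its list. It comes from RefSeq (GRCm38.p6, chr16:48842359-48842658, plus strand). Capitals mark TTC, any 4 bases and GAA, the spaced palindrome that STAT6, the factor activated by interleukins 4 and 13, can bind.
Retnla: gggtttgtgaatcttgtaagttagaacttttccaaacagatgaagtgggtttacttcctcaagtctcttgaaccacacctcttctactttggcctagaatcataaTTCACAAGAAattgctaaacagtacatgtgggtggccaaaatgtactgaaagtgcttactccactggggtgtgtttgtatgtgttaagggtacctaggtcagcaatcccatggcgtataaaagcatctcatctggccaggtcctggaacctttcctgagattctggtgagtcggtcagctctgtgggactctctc
The match begins at position -145 from the start. The motif was in 6.95% of all 32851 windows, and in 1 of the 3 called genes of the list with a window.

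Of 20 tested receptors for phagocytosis and clearance 2 rose and none fell (1 to 3 higher with 1 library left out). Among all genes tested, 6.21% rose and 1.59% fell. Olr1, a receptor for oxidized lipoprotein, had 22.5 to 120.4 CPM in treated and 10.1 to 32.1 CPM in control libraries, and C5ar1, the receptor for complement fragment C5a, 64.5 to 624 and 45.4 to 113 CPM, both with overlap. Of 23 tested lipid-associated macrophage genes none passed in edgeR, with 6 at an unadjusted p under 0.05, 1 called by DESeq2 and none by limma-voom. Trem2 was at 15.1 to 33.8 CPM in treated and 15.3 to 21.0 CPM in control libraries, Spp1 at 450.3 to 1352 and 411 to 944 CPM and Gpnmb at 72.6 to 238 and 79.0 to 171 CPM. For 11 of the 23 the 95% interval of the log2 fold change lay between -1 and 1, so the data leave room for larger changes of the other 12.

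Coagulation factors, complement and matrix proteases act together in wounds. Of 17 tested coagulation and fibrinolysis genes 4 rose (F5, Tgm2, F10 and Plaur) and none fell. F5, coagulation factor V (GRCm38 chromosome 1, 164151838 to 164220277), had 21.9, 56.6 and 116 CPM as the lowest, median and highest treated library and 2.74, 14.3, 7.05 and 5.23 CPM in the control libraries. No treated library fell within the control range (log2 fold change 2.94, SE 0.54, edgeR adjusted p = 0.00271). Plaur, the urokinase receptor, rose by 1.04 (SE 0.24) with overlap. C3, the central complement protein, had 108, 319.8 and 471 CPM in treated and 118, 72.9, 61.7 and 58.6 CPM in control libraries, with the lowest treated library below control replicate 1 (log2 fold change 1.96, SE 0.35, edgeR adjusted p = 0.00239). It was 1 of 2 genes called among 13 tested complement genes, with C5ar1.

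Mmp9, the gelatinase stored in neutrophil granules and also a neutrophil marker here, had 46.9, 102 and 386 CPM as the lowest, median and highest treated library and 3.66, 9.69, 22.9 and 29.5 CPM in the control libraries. It rose without overlap (log2 fold change 3.16, SE 0.57, edgeR adjusted p = 0.00251), and of 18 tested matrix genes only Ecm1 rose with it. With library totals 1 of the 18 rose. Of 13 tested growth factors, placental growth factor Pgf (1.64, SE 0.45) and Hbegf (0.83, SE 0.25) rose, and both calls were lost without treated replicate 3. With library totals 1 growth factor rose. Pgf passed in 6 and Hbegf in 2 of the 10 leave-one-out fits. Vegfa was at 83.9 to 196 CPM in treated and 86.9 to 109 CPM in control libraries and was not called.

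Nrf2 is the factor that induces glutathione and thioredoxin genes under oxidative stress, and 6 of 31 tested genes of its list rose while none fell, with a median of 0.39. With library totals 4 rose, and 3 to 8 did with 1 library left out. Slc7a11, the cystine importer that feeds glutathione synthesis, had 206, 457 and 1614 CPM as the lowest, median and highest treated library and 50.3, 76.5, 122 and 161 CPM in the control libraries, and the groups did not overlap (log2 fold change 2.56, SE 0.46). Sqstm1, the autophagy receptor p62, rose by 1.11 (SE 0.22, edgeR adjusted p = 0.00448) and Txnrd1, thioredoxin reductase, by 0.67 (SE 0.15, edgeR adjusted p = 0.00942), both without overlap. Osgin1 rose by 1.17 (SE 0.30) with overlap. Prdx6 and Nfe2l2, the gene of Nrf2, completed the 6. Hmox1, the heme oxygenase on the same list, had 607, 869 and 2201 CPM in treated and 417, 448, 1080.4 and 1171 CPM in control libraries and was not called.

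Of 19 tested iron and heme genes 3 rose, Hp, Slc25a37 and Lcn2, and 1 was lower with library totals. With 1 library left out 1 to 4 rose. Slc25a37, mitoferrin, rose by 1.13 (SE 0.27). Lcn2, a neutrophil protein that binds bacterial iron carriers, had 4.27, 33.9 and 427 CPM as the lowest, median and highest treated library, rose by 3.48 (SE 0.95, edgeR adjusted p = 0.0268) and passed in 4 of the 10 leave-one-out fits. Hp and Lcn2 are also on the monocyte and neutrophil lists. Hemoglobin RNA moved with treated replicate 3: Hba-a1 had 6.28, 74.6 and 1271 CPM as the lowest, median and highest treated library and 9.15, 7.65, 14.1 and 91.4 CPM in the control libraries (log2 fold change 3.18, SE 1.09, edgeR adjusted p = 0.0752). It has a near-identical copy, so its reads are uncertain. The erythroid and platelet list had 0 of 5 tested genes called by edgeR, 4 at an unadjusted p under 0.05, 2 called by DESeq2 and none by limma-voom.

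Of 25 genes of ER chaperones and the unfolded protein response 5 rose (Sesn2, Dnajb9, Chac1, Atf4 and Ppp1r15a) and none fell, around a list median of 0.01. Sesn2, a sensor of leucine, had 31.0, 46.9 and 115 CPM as the lowest, median and highest treated library and 21.95, 22.4, 27.6 and 23.5 CPM in the control libraries without overlap (log2 fold change 1.24, SE 0.26, edgeR adjusted p = 0.00687). Dnajb9, an ER chaperone, rose by 1.43 (SE 0.32) and Atf4, the factor of the integrated stress response, by 0.51 (SE 0.15), with a call in 5 of the 10 leave-one-out fits. With library totals 3 of the 25 rose, without Atf4, and 1 fell, and with 1 library left out 2 to 6 rose. Of 20 heat shock genes only Hspa4l rose, by 1.85 (SE 0.35, edgeR adjusted p = 0.00391), where DESeq2 called 4.

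Of 20 tested genes of necroptosis, pyroptosis and ferroptosis 4 rose, Slc7a11, Nlrp3, Casp4 and Ninj1, and with library totals 4 were called higher and 2 lower. Ninj1, which ruptures the membrane at the end of lytic cell death, rose by 1.42 (SE 0.30) with overlapping groups. Oxygen and sugar metabolism showed few calls. None of 23 tested hypoxia genes passed in edgeR, with 3 at an unadjusted p under 0.05 and 1 called by DESeq2, and of 21 tested glycolysis genes only the lactate exporter Slc16a3 rose (1.17, SE 0.28). Ldha ranged over 1039 to 2285 CPM in treated and 1418 to 1907 CPM in control libraries and Slc2a1 over 169 to 494 and 178 to 286 CPM. The interval of 16 of the 21 glycolysis genes lay between -1 and 1.

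T cell transcripts were lower. Of 25 T cell markers, all tested, 7 fell and none rose, with a median of -0.53, against 1.59% of all genes, and 12 fell with library totals. The number called was 1 to 11 with 1 library left out. Their summed level was 1327 to 3184 CPM in treated and 3423 to 4211 CPM in control libraries, without overlap, and treated replicate 3 was again the extreme. Cd8a, the co-receptor of cytotoxic T cells, had 29.9, 121 and 170.4 CPM as the lowest, median and highest treated library and 173, 219, 363 and 288 CPM in the control libraries. The groups came close but did not overlap (log2 fold change -1.19, SE 0.31, edgeR adjusted p = 0.0213). Cd8b1 fell by 0.99 (SE 0.27), the T cell receptor constant gene Trbc1 by 1.04 (SE 0.28) and the signalling chain gene Cd247 by 0.69 (SE 0.19), together with Themis, Cd3d and Bcl11b. The calls of Cd8a, Cd8b1 and Cd247 were lost in a fit of only these 2 groups. Cd4 was at 6.04 to 24.4 CPM in treated and 11.7 to 23.8 CPM in control libraries and Foxp3, the regulatory T cell factor, at 2.68 to 13.4 and 3.73 to 8.22 CPM, and neither was called.

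Of 23 tested checkpoint and activation genes of T cells, Tox and Cd27 fell, and 3 genes fell with library totals. Tox, a factor of chronically stimulated T cells (GRCm38 chromosome 4, 6686353 to 6991557), had 37.0, 72.4 and 123 CPM as the lowest, median and highest treated library and 156, 179, 174 and 165 CPM in the control libraries without overlap (log2 fold change -1.08, SE 0.24, edgeR adjusted p = 0.00908). Cd27 fell by 0.71 (SE 0.19). Outside the lists, the T and NK cell receptors Cxcr6 and Cd226 fell by 1.23 (SE 0.25) and 1.03 (SE 0.17) and the adhesion receptor Cd48 by 1.08 (SE 0.26), each without overlap.

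Of 16 NK cell markers only Klrd1, the CD94 receptor chain, fell, from 92.4 to 152 CPM in control to 32.2 to 78.9 CPM in treated libraries (log2 fold change -1.30, SE 0.33, edgeR adjusted p = 0.0186), and Ncr1, which defines NK cells, was at 8.65 to 42.6 and 23.5 to 45.9 CPM in treated and control libraries. Of 19 tested cytotoxic effector genes none fell and 1 rose. That gene, Srgn (1.17, SE 0.34), encodes the granule proteoglycan serglycin, which myeloid cells also make, and it passed in 3 of the 10 leave-one-out fits. With library totals none rose and 1 fell. Gzmb had 20.5, 72.6 and 173 CPM in treated and 96.1, 131, 281 and 331 CPM in control libraries with a log2 fold change of -1.22 (SE 0.52, 95% interval -2.29 to -0.14), which did not pass. Ifng was at 29.1 to 149 CPM in treated and 109 to 159 CPM in control libraries.

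B cell and plasma cell markers gave 0 calls among 13 tested in edgeR, DESeq2 and limma-voom, with 1 at an unadjusted p under 0.05, and 1 lower with library totals. Of 20 dendritic cell markers 2 fell (3 with library totals), both known from plasmacytoid dendritic cells. Ccr9, the receptor for CCL25, had 10.1, 15.5 and 30.7 CPM as the lowest, median and highest treated library and 61.3, 44.9, 37.0 and 43.7 CPM in the control libraries without overlap (log2 fold change -1.26, SE 0.30, edgeR adjusted p = 0.0137). Siglech fell by 1.16 (SE 0.35) and passed in 2 of the 10 leave-one-out fits. Xcr1, a gene of cross-presenting dendritic cells, was at 28.6 to 57.0 CPM in treated and 43.3 to 57.6 CPM in control libraries and Flt3 at 5.37 to 14.9 and 9.98 to 14.6 CPM.

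Cell division genes held the largest number of falling members. Of 69 tested cell cycle and mitosis genes 15 fell, 1 rose and 53 were not called, with a median of -0.60. The number that fell was 28 with library totals and 3 to 25 with 1 library left out. Cdk1, the kinase that drives entry into mitosis, had 13.4, 25.4 and 29.9 CPM as the lowest, median and highest treated library and 33.8, 43.3, 81.6 and 76.5 CPM in the control libraries (log2 fold change -1.31, SE 0.31). Cenpa, the centromeric histone, had 47.0, 53.5 and 69.5 CPM in treated and 96.1, 107, 112 and 110.1 CPM in control libraries (log2 fold change -0.95, SE 0.19, edgeR adjusted p = 0.00414). The groups did not overlap for either gene. The spindle checkpoint genes Bub1b and Mad2l1 fell by 1.36 (SE 0.32) and 0.99 (SE 0.21), and the mitotic kinase Plk1 by 1.05 (SE 0.29), which passed in 5 of the 10 leave-one-out fits. Outside the list, Ube2c of the anaphase-promoting complex fell by 1.12 (SE 0.24) and the phosphatase inhibitor Cip2a by 1.05 (SE 0.23).

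Other proliferation genes did not pass or rose. Mki67, a common marker of dividing cells, was at 50.4 to 73.1 CPM in treated and 57.1 to 77.8 CPM in control libraries and was not called, and Top2a had a log2 fold change of -0.62 (SE 0.25, edgeR adjusted p = 0.125). Ckap2l, a spindle protein gene, rose by 1.25 (SE 0.30, edgeR adjusted p = 0.0134).

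The windows of Cdk1 and Bub1b are shown because promoters of mitotic genes are known to share CCAAT boxes and a cell cycle homology region (TTTGAA). Both come from RefSeq (GRCm38.p6; Cdk1 chr10:69352863-69353162, minus strand, and Bub1b chr2:118597961-118598260, plus strand), and capitals mark matches to CCAAT or TTTGAA on either strand.
Cdk1: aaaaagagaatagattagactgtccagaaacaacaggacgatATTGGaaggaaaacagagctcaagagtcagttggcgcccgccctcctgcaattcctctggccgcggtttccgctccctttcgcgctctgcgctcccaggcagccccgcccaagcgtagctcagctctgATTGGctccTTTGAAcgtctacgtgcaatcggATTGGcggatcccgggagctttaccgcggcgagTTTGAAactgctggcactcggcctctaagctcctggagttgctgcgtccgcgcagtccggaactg
Bub1b: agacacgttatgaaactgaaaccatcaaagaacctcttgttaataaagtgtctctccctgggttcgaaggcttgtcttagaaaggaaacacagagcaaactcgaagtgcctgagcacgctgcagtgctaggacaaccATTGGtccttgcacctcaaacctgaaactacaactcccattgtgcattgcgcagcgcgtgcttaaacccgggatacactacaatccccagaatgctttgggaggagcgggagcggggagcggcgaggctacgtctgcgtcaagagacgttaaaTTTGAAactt
Cdk1 held CCAAT 3 times and TTTGAA 2 times, and Bub1b held each once. Of the 15 called genes of the list with a window, 12 held CCAAT and 10 held TTTGAA, against 37.4% and 17.9% of all 32851 windows. Among all 59 genes of the list with a window, called or not, 42 and 34 did, so the shares were high over the whole list.

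MHC class I presentation and housekeeping programs gave few calls, and their counts depended on the scaling. MHC class I presentation genes had a median of -0.36 with 1 of 22 tested lower, and 7 lower with library totals. The 1 was Psmb9, an immunoproteasome subunit (GRCm38 chromosome 17, 34181987 to 34187764), with 20.1, 50.5 and 70.1 CPM as the lowest, median and highest treated library and 97.9, 106, 97.5 and 124 CPM in the control libraries (log2 fold change -1.12, SE 0.32, edgeR adjusted p = 0.0345). The groups did not overlap, yet only 2 of the 10 leave-one-out fits called it. Nuclear genes of oxidative phosphorylation had a median of -0.27 with 3 of 71 lower, 12 with library totals and 1 to 6 with 1 library left out. Ndufa4, a subunit of the respiratory chain, had 11.4, 24.6 and 37.8 CPM in treated and 45.7, 53.5, 45.2 and 62.3 CPM in control libraries (log2 fold change -1.03, SE 0.22, edgeR adjusted p = 0.00781), and Ndufc2 fell by 0.54 (SE 0.13), both without overlap.

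Mitochondrially encoded genes had 0 of 7 tested called by edgeR, DESeq2 or limma-voom, and 0 at an unadjusted p under 0.05. Cytosolic ribosomal protein genes had a median of -0.35 with 1 of 77 lower, Rpl15 (-0.88, SE 0.24), and 20 lower with library totals. The pseudogene Rpl35a-ps2 fell by 1.04 (SE 0.26), and its reads cannot be told from those of its parent gene. Proteasome genes had 0 of 31 called by edgeR, 6 at an unadjusted p under 0.05, 2 by DESeq2, 0 by limma-voom and 8 lower with library totals. Of 32 tested actin and adhesion genes 1 rose and 1 fell, and with library totals 1 rose and 3 fell. Vcl, vinculin, was at 7.31 to 18.1 CPM in treated and 0.915 to 7.14 CPM in control libraries and Tmsb10, a thymosin that binds actin, at 40.8 to 82.5 and 82.3 to 105 CPM. The lipid and cholesterol list had 1 of 22 tested genes called, Lss, which closes the sterol ring and fell by 1.31 (SE 0.30). Among genes averaging 10 CPM or more whose groups did not overlap, the largest fall was that of Klk1, a kallikrein protease, from 17.4 to 29.9 CPM in control to 2.19 to 11.9 CPM in treated libraries (log2 fold change -1.57, SE 0.38, edgeR adjusted p = 0.0159). The zinc finger genes Zmym3 (-1.12, SE 0.23) and Zc3h7b (-1.10, SE 0.29) and the secreted factor Fam3c (-1.10, SE 0.24) were also among the 20 largest falls without overlap.

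Interferon and class II programs gave almost no calls. Of 37 tested type I interferon-induced genes none passed in edgeR, 4 had an unadjusted p under 0.05, 1 was called by DESeq2 and none by limma-voom, and the interval of 26 lay between -1 and 1. Irf7 was at 43.7 to 189 CPM in treated and 58.6 to 99.7 CPM in control libraries and Isg15 at 168 to 777 and 311 to 498 CPM. Of 28 tested genes of the interferon gamma response only Psmb9 was called. MHC class II presentation genes had 0 of 14 called by edgeR, DESeq2 and limma-voom, 1 at an unadjusted p under 0.05, and 13 of 14 intervals between -1 and 1, so for those 13 genes, taken one at a time, the interval held no change of 2-fold or more. H2-Aa was at 1145 to 1802 CPM in treated and 1371 to 1906 CPM in control libraries and Ciita, the master regulator of the class, at 45.2 to 105 and 46.4 to 128 CPM.

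Of 20 tested myeloid checkpoint and suppression genes 4 rose, Il10, Lilrb4a, Lilr4b and Vsir, and none fell. With library totals 3 rose and 2 fell, and 2 to 7 rose with 1 library left out. Lilrb4a, an inhibitory receptor, rose by 1.21 (SE 0.28, edgeR adjusted p = 0.0115). It shares sequence with Lilr4b, so reads of the pair are uncertain.

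Transcripts of melanoma, fibroblast, endothelial, keratinocyte and muscle cells, which the CD45+ gate should leave out, were scarce. Erythroid and platelet markers reached more in some libraries. They summed to 111.7 to 10360 CPM in treated and 73.4 to 1082 CPM in control libraries. Melanoma markers summed to 199.8 to 508 CPM on library totals in the 10 CD45+ libraries, and to 29139 to 41614 in the 11 CD45- libraries of the same groups and day. None of 8 tested melanoma markers was called by edgeR, DESeq2 or limma-voom, and 0 had an unadjusted p under 0.05. Of 15 fibroblast, 14 endothelial, 12 keratinocyte and 10 skeletal muscle markers, 3, 3, 2 and 0 passed the filter and none was called. Their summed levels overlapped between the groups. The keratinocyte gene Krt5 had 0 counts in each library.

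The histotripsy-abscopal tumor, the untreated tumor on the opposite flank of a treated mouse, gives a second reference on the same day, with 7 libraries. Between treated and abscopal tumors 500 genes were higher and 58 lower in the treated tumor, 4.87% and 0.565% of those tested and 5.44% in either direction. By list, 14 of 19 neutrophil markers, 13 of 32 pattern recognition genes and 10 of 25 NF-kB feedback genes were higher. So were 8 of 24 immediate early genes, 7 of 15 cytokines, 7 of 15 eicosanoid genes and 6 of 31 Nrf2 genes. Chemokines had 6 of 22 higher, coagulation genes 6 of 17 and genes of alternative activation 5 of 22. In the other direction, 5 of 25 T cell markers, 4 of 69 cell cycle genes and 3 of 23 T cell checkpoint genes were lower. Both comparisons use the same treated libraries. The labels do not say which treated and abscopal libraries came from the same mouse. The fit therefore took the 2 groups as unpaired, and the part of shared mice in these calls was not tested. Il23a was 3.56 higher in the treated than in the abscopal tumor on the log2 scale (edgeR adjusted p = 0.000342), Mmp9 3.24 (adjusted p = 0.000496) and Slc7a11 2.295 (adjusted p = 0.00105). For some genes called against control the difference from the abscopal tumor did not pass. Retnla had 32.4 ± 47.9 CPM (SD, n = 7) in abscopal libraries, and its difference of 2.03 from the treated tumor did not pass (edgeR adjusted p = 0.0561). Neither did that of Klf4 (0.03), Chil3, Cdk1, Cd8a or Tox, and the abscopal level of Klf4 was close to its treated level. The comparison fell to 275 genes without treated replicate 3 and rose to 861 without treated replicate 5.

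On day 7 there were 3 treated and 10 control libraries, and no gene passed between them in the fit of both days (edgeR), with 298 at an unadjusted p under 0.05. The change on day 3 differed from that on day 7 for 301 genes (2.68%), 272 with a more positive and 29 with a more negative value on day 3, or 2.42% and 0.258% of 11251 tested. Without day 7 treated replicate 1 the count was 30, and without day 7 treated replicate 3 it was 63, each with 2 treated libraries left on that day. Egr3 was one of the genes that also passed without day 7 treated replicate 1, with log2 changes of 2.34 on day 3 and -0.25 on day 7, a difference of 2.58 (SE 0.48, edgeR adjusted p = 0.00366). C3 (difference 2.08, SE 0.41, edgeR adjusted p = 0.00498) and Tnfaip2 (2.09, SE 0.42, edgeR adjusted p = 0.00611) passed without it too.

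Day 7 values of Retnla, Alox15, F5 and Siglecf are given here side by side with their tests. Retnla had a log2 change of 1.96 (SE 0.73) on day 7, Alox15 of 1.48 (SE 0.71), F5 of 0.82 (SE 0.52) and Siglecf of 0.60 (SE 0.60). None of these 4 day 7 values was called, and their differences between the days did not pass either (edgeR adjusted p = 0.446, 0.536, 0.175 and 0.16). Tgm2 and Klf4, also genes of alternative activation, did differ between the days, by 1.40 and 1.005. Neither of these 2 passed without day 7 treated replicate 1. The falls of Cd8a (-0.55, SE 0.34) and Cdk1 (-0.32, SE 0.32) had smaller values on day 7, and these differences did not pass (adjusted p = 0.504 and 0.258, edgeR). Ccr9 and Siglech had changes of 0.37 and 0.42 on day 7, and their differences between the days passed (adjusted p = 0.0248 and 0.0377, edgeR).

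**Figure D4:**
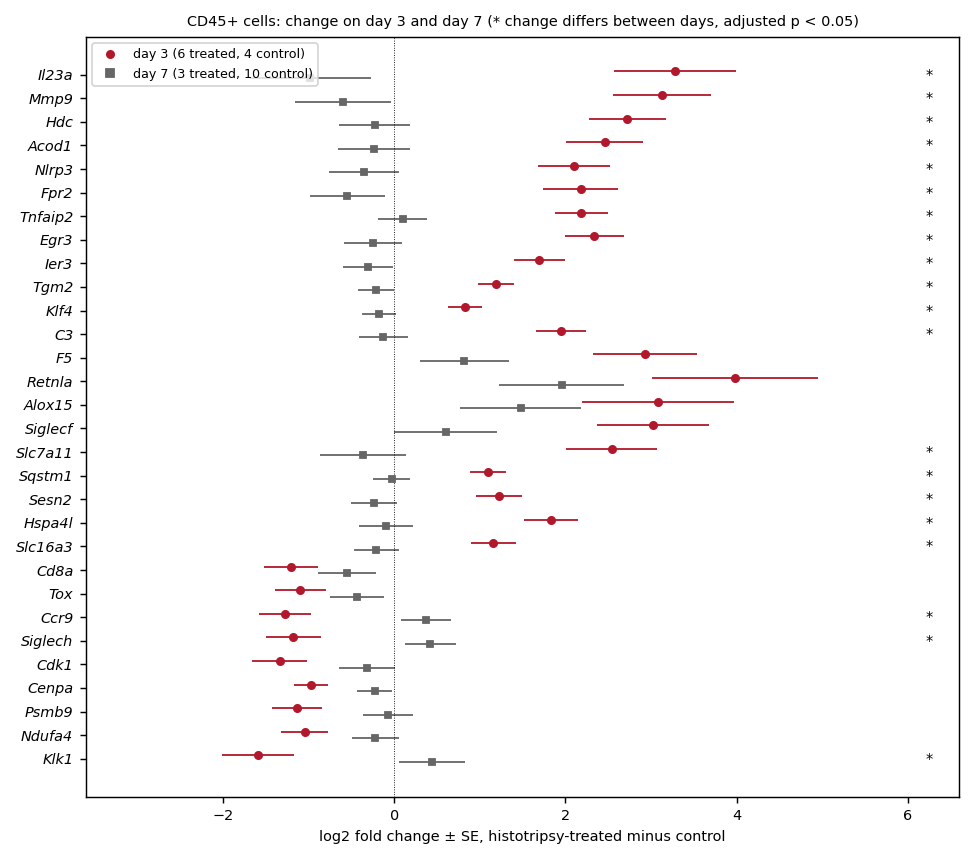
Log2 fold change of histotripsy-treated minus control CD45+ cells on day 3 (red circles, 6 treated and 4 control libraries) and day 7 (grey squares, 3 treated and 10 control libraries) for 30 genes, with bars for SE and an asterisk where the change differed between the days at an adjusted p under 0.05 (edgeR). No gene was called on day 7, where Retnla (1.96), Alox15 (1.48) and F5 (0.82) have positive values.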

How the data were processed

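RNA of flow-sorted CD45+ cells was sequenced as QuantSeq 3′ libraries. Per the study's methods and the submitters' processing notes, reads were trimmed (Trim Galore 0.5.0), aligned to GRCm38 (STAR 2.6.0), collapsed by unique molecular identifier with Lexogen software and assigned to genes with featureCounts. The authors deposited raw counts, whole numbers that were not normalized. The strand setting is not given in the sources used here. A line with no gene name that held the column totals (100% of them) was left out.

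Counts of all 17 CD45+ libraries of day 3 (6 histotripsy-treated, 4 control, 7 abscopal) were fitted together in edgeR 4.0.16 (R 4.3.3) with TMM factors. Genes were kept by filterByExpr at a minimum count of 10 and a minimum total of 15, and tested by quasi-likelihood with Benjamini-Hochberg adjusted p under 0.05. The day difference was an interaction in a fit of both CD45+ tables. The fit was first tested on simulated data. Library values were compared by a two-sided exact permutation test, which with 6 against 4 libraries gives no p below 0.00476. Intervals are 95% intervals, and a count of 0 was taken to allow 3 counts. Both the floor and the totals of 1039007 to 2448335 counts per library cover counting error only.

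Groups came from the sample labels, which also number the replicates. Deviations of same-numbered treated and control libraries correlated at -0.0646 to 0.262, and those of other pairs at -0.315 to 0.288. Same-numbered treated and abscopal libraries correlated at 0.0155 to 0.322, and other such pairs at -0.321 to 0.328. No pair of libraries agreed within sampling noise (smallest chi-square per degree of freedom 3.68). Members and gene lists were chosen with earlier results of these data known. Named genes were at most 20 per direction with the largest change, out of called genes averaging 10 CPM or more without overlap, at most 5 called genes per list by smallest p (for a list without calls its 3 most abundant), and a set of fixed genes. Ly6g, Prg2, Epx, Krt5, Ddx3y, Eif2s3y and Nfkbia were added after their values were seen, and genes given without values complete a count. No set test was run. Coordinates are from GENCODE vM21 (GRCm38, matched by symbol for 10088 of 10264 tested genes) and promoter windows from RefSeq (GRCm38.p6). The alternatives were DESeq2 1.42.0, limma-voom (limma 3.58.1), library totals, upper-quartile factors, no filter, only the groups compared, a replicate block, the most abundant gene left out and each library left out. CD45- libraries of day 3 served only as a reference for melanoma markers. The lysosome genes are not reported here.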

Additional observations from a re-analysis of the deposited data

Results flagged for a closer look

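Within groups, 222 checks for a library far from the others of its group (Dixon's criterion) picked out 19 values, and chance alone picks out about 1 in 20. Treated replicate 3 accounted for 12 of them. It was high for Chil1 (158.9 CPM), Il1f9 (583.8 CPM), Slpi (1466 CPM), S100a8 (18800 CPM), S100a9 (14180 CPM), Fpr2 (527.9 CPM), Slc7a11 (1614 CPM), Slc25a37 (165.2 CPM), Sesn2 (114.9 CPM), Slc16a3 (882 CPM) and Hba-a1 (1271 CPM), and low for Cd27 (25.18 CPM). Treated replicate 6 was high for Prnp (263.7 CPM) and low for Klf4 (341.7 CPM), and treated replicate 4 was high for Atf4 (1927 CPM). Control replicate 1 was high for Pgf (9.148 CPM) and Lilrb4a (33.85 CPM) and control replicate 4 for Hba-a1 (91.45 CPM). Treated replicate 1 had the lowest total of its group, 1.186e+06 counts. What set these libraries apart was not tested.

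The change against control differed between day 3 and day 7 for 51 of the 108 genes named with a fold change (interaction in edgeR, adjusted p under 0.05), 10 of which also passed without day 7 treated replicate 1. Differences are given as the log2 change on day 3 minus that on day 7. Those 10 were Slc1a2 (5.17), Gpr84 (4.07), Gm10388 (6.16), Cecr2 (3.85), Lsmem1 (3.78), Zmym3 (-1.21), Tnfaip2 (2.09), Egr3 (2.58), Maff (1.64) and C3 (2.08). Among secreted, receptor and signalling genes the differences were 4.40 for Chil1, 3.90 for Rasip1, 4.26 for Il23a, 3.73 for Mmp9, 4.65 for Saa3, 3.96 for Il1f9, 2.87 for Csf1, 1.77 for Ccl3, 1.64 for Icam1, 2.004 for Ier3 and 1.59 for Lilrb4a. Among neutrophil and pattern recognition genes they were 2.95 for Hdc, 2.70 for Acod1, 2.07 for Il1r2, 1.97 for Slpi, 1.98 for Hp, 4.14 for Lcn2, 4.27 for Csta3, 2.45 for Nlrp3, 1.90 for Mefv, 2.01 for Clec4e, 2.72 for Fpr2 and 1.14 for Casp4. Among stress and metabolic genes they were 2.90 for Slc7a11, 1.13 for Sqstm1, 1.84 for Osgin1, 1.46 for Sesn2, 1.89 for Dnajb9, 1.93 for Hspa4l, 1.37 for Slc16a3, 2.74 for Ptgs1, 3.53 for Rdh12 and 1.61 for Ninj1. Among genes of alternative activation they were 1.40 for Tgm2 and 1.005 for Klf4. The noncoding genes Gm15728, 1110002J07Rik and Gm28192 differed by 5.22, 4.28 and 3.36. More negative on day 3 were Klk1 (-2.04), Ccr9 (-1.64) and Siglech (-1.60).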

How the results depend on the processing

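The number of genes that differed between treated and control tumors was 800. It was 1244 without a filter on low counts, 451 with only the groups compared, 1256 with the replicate number as a block and 338 to 1112 with 1 library left out. It fell to 338 without control replicate 3, 361 without control replicate 4 and 526 without control replicate 2. The 163 lower genes became 38 without control replicate 3 and 35 without control replicate 4, and the 637 higher genes became 300 and 326. Against the abscopal tumor the number was 558, with 1022 without the filter, 365 with only the groups compared and 275 to 861 with 1 library left out. The 301 genes whose change differed between the days became 142 with limma-voom, 628 without the filter, 182 with only the 4 groups, 25 with the replicate block and 30 to 533 with 1 library left out (63 without day 7 treated replicate 3). Replicate numbers of treated and control libraries were not taken as pairs. The cause of these shifts was not tested, beyond the fewer samples or the other number of genes that some of these settings hold.

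Treated minus control library totals were -2.006e+05 counts and turned to 4.638e+04 without control replicate 4, within -4.234e+05 to 4.638e+04 with 1 library left out. The share of the most abundant gene was higher by 1.83 points (1.413 to 2.393 with 1 library left out), and passed 0.05 unadjusted without treated replicate 5 or control replicate 1. The mitochondrial share differed by -0.333 points (-0.4063 to -0.2786) and passed 0.05 unadjusted without treated replicate 1. Of the 108 genes given with a fold change, 104 were called, 67 of these in every alternative that tested them, and none reversed. Few counts limit genes such as Siglecf, Ptgs1 and Slc1a2.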
